A study of Mus musculus with 9 samples.

Results

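The 9 genes described here belong to the unfolded protein response and to the Atf5 feedback of olfactory receptor choice: Eif2ak3, Atf4, Atf5, Ddit3, Xbp1, Dnajb9, Hspa5, Hsp90b1 and Herpud1. They were chosen by name and read from the 24421 gene rows of the count table, and all 9 were among the 20213 genes that passed the filter on low counts. RNA-seq was performed on whole main olfactory epithelium (MOE), the nasal tissue that detects odours, of C57BL/6 mice labelled as postnatal day 14. The 3 genotypes were wild type (WT), heterozygous (het) and homozygous (homo) for loss of TAAR enhancer 1, a regulatory element without coding sequence in the cluster of trace amine-associated receptor (TAAR) genes, with 3 mice each. WT mice kept both copies and received no other treatment, and the deletion, made by CRISPR-Cas9 in zygotes, was carried by a single line, so an effect of that line cannot be told apart from an effect of the deletion. The labels give no other allele or agent. The study's reporting summary describes mice of this line as older and of mixed background, and the labels were followed here.

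The MOE holds olfactory sensory neurons (OSNs), each of which expresses a single receptor gene, together with supporting, basal and gland cells. When unfolded protein builds up in the endoplasmic reticulum (ER), sensors in the ER membrane start the unfolded protein response: the kinase PERK, encoded by Eif2ak3, phosphorylates the translation factor eIF2alpha, IRE1 splices the mRNA of Xbp1, and ATF6 is cleaved into a transcription factor. In developing OSNs, newly made receptor protein is known to engage PERK, which favours translation of the transcription factor ATF5. ATF5 in turn promotes genes such as Adcy3 and the receptor transporters Rtp1 and Rtp2, and loss of the demethylase encoded by Kdm1a (LSD1) then stabilises the receptor choice. Much of this control acts on translation, splicing, phosphorylation or cleavage, so the mRNA levels given here do not measure the activity of the pathway. The comparison asked whether these mRNAs differ in MOE in which Taar2 to Taar5 are almost silent. Per the study, OSNs that express TAAR genes are a very small share of whole MOE. Levels in whole tissue therefore cannot be assigned to those cells.

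Promoter sequence was searched for the elements through which ATF6 and XBP1 are known to act. The ER stress response element (ERSE) is CCAAT, 9 bases of any kind and CCACG, and ERSE-II is ATTGG, 1 base of any kind and CCACG. Both strands of RefSeq promoters of GRCm38.p6, from 250 bases before to 50 bases after each start, were searched for exact matches. The lines below show the 4 matches among the 9 genes, with the 2 boxes of each element in capitals and 5 flanking bases on each side, 5′ to 3′ on the strand of the gene.
Hspa5, chr2:34772020-34772048 (+), ERSE: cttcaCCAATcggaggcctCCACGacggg
Hsp90b1, chr10:86705633-86705661 (-), ERSE: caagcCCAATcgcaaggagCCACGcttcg
Hsp90b1, chr10:86705528-86705556 (-), ERSE in the opposite orientation: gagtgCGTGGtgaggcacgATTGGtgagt
Herpud1, chr8:94386372-94386392 (+), ERSE-II: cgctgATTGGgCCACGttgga

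The elements began 65 bases before the RefSeq start in Hspa5, 212 and 107 bases before it in Hsp90b1 and 52 bases before it in Herpud1. Gene positions given below are from GENCODE, where Hspa5 starts at chr2:34771970, so its element lies inside the gene as annotated there. The matches of Hsp90b1 and Herpud1 lie before the start in both annotations. ERSE was found in 39 of 32851 promoters (0.119%) and ERSE-II in 12 (0.0365%). The unfolded protein response element TGACGTGG, whose opposite strand opens with the CCACG box of ERSE, was found in 222 promoters (0.676%) and in none of the 9 genes. The C/EBP-ATF composite element TGATGCAAT, known from ATF4 target genes, was found in 63 promoters (0.192%) and in none of the 9 genes. Each of the 9 genes had 1 promoter in the table, apart from Atf5, which had 2. A match is a description of these letters and was not tested for binding. Inexact copies and sequence outside the window were not searched, so a gene without a match may still carry an element.

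Libraries held 24583906 to 32631951 counts in genes. Reads of Taar2 to Taar5, taken as a check of the deletion, numbered 227 to 337 per WT library, 158 to 176 per het library and 1 to 3 per homo library, in the order of the labelled genotypes. OSN markers were abundant, with Omp, the olfactory marker protein gene, at 3045 to 3549 CPM (counts scaled to library size, with TMM factors) in the 9 libraries. The 330 vomeronasal receptor genes, which belong to another sense organ of the nose, summed to 67.3, 120 and 69.7 CPM in het replicate 1, homo replicate 2 and homo replicate 3 and to at most 17.3 CPM in the other 6 libraries, so results are also given without those 3 libraries where they move. In whole tissue, fewer cells of a type and less RNA per cell cannot be told apart. Replicates were separate mice per the study, and every pair within a genotype differed by more than sampling noise.

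Atf5 was the most abundant of the 9 mRNAs once length was taken into account, and its level stood far above the others. Levels in CPM per kilobase of annotated exon, as mean ± SD over the 9 libraries, were 590.1 ± 45.8 for Atf5, a level above that of 99.9% of the 19427 genes with a known length. The ER chaperone genes Hsp90b1, encoding GRP94, and Hspa5, encoding BiP, followed at 181 ± 4.73 and 126 ± 4.73 CPM per kilobase. Next came Atf4, the transcription factor gene translated when eIF2alpha is phosphorylated, at 99.9 ± 4.65 CPM per kilobase. Herpud1, which encodes an ER membrane protein of the degradation machinery, reached 71.7 ± 4.89 CPM per kilobase. At the lower end of the order were Xbp1 at 51.5 ± 4.25, Dnajb9, encoding the BiP co-chaperone ERdj4, at 36.0 ± 5.23, Ddit3, encoding CHOP, at 23.1 ± 1.93, and Eif2ak3 at 10.8 ± 0.492 CPM per kilobase. No gene's range over the libraries overlapped that of its neighbour in this order. The closest neighbours were Xbp1 and Dnajb9, where the lowest Xbp1 library had 47.6 and the highest Dnajb9 library 47.1 CPM per kilobase. Even Eif2ak3 lay above 72.3% of genes.

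**Figure D1:**
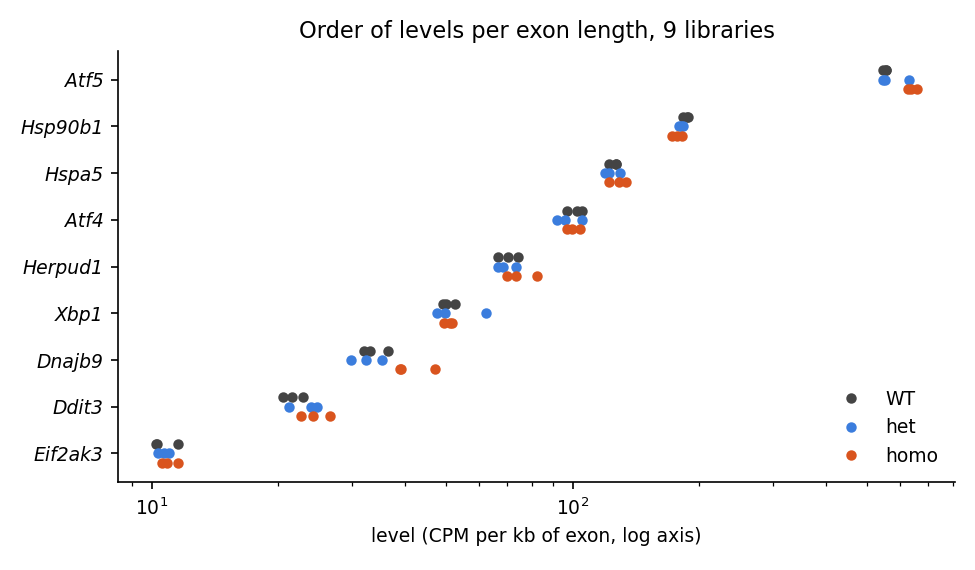
Levels of the 9 genes in CPM per kilobase of exon (log axis), with 1 point per library coloured by genotype. Atf5 lies at 547 to 658, and no neighbouring genes in the order overlap.

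In the PERK arm, the kinase itself showed no difference that the test could detect. Eif2ak3 (chr6:70844515-70905245, + strand, GRCm38) had 61.9, 61.8 and 69.4 CPM in WT, 62.5, 64.5 and 66.3 CPM in het and 63.9, 69.6 and 65.4 CPM in homo libraries. The ranges of the 3 genotypes overlapped. The homo to WT log2 fold change was 0.042 (95% interval -0.075 to 0.16; edgeR quasi-likelihood test, Benjamini-Hochberg adjusted p = 0.878). Atf4 (chr15:80255184-80257541, + strand) had 248, 241 and 229 CPM in WT, 226, 217 and 248 CPM in het and 229, 245 and 236 CPM in homo libraries. Its highest values came from WT replicate 1 and het replicate 3, and the genotypes overlapped. The homo to WT log2 fold change of Atf4 was -0.017 (95% interval -0.13 to 0.098; edgeR adjusted p = 0.961).

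Atf5 was the member with the smallest p-value between homo and WT mice, and its level was higher in all 3 homo libraries than in any WT library. Atf5 lies on chr7:44812256-44816658 (- strand) and encodes the transcription factor through which the receptor feedback runs. It had 1111, 1108 and 1091 CPM in WT, 1104, 1089.5 and 1254 CPM in het and 1267, 1249.9 and 1310.4 CPM in homo libraries. Het replicates 1 and 2 lay at the WT level and het replicate 3 at the homo level. The homo mean was 15.6% above WT (log2 fold change 0.21, SE 0.049, 95% interval 0.11 to 0.31). With edgeR this gave an unadjusted p of 0.00061 and an adjusted p of 0.237, ranked 52 among the genes tested, so it did not pass the threshold of 0.05. The call depended on the tool and on the libraries in the fit: DESeq2 with default settings gave an adjusted p of 0.00971, edgeR on the 6 libraries compared gave 0.0297, and edgeR without het replicate 3 gave 0.0342. With edgeR and either vomeronasal receptors or OSN markers as a covariate, Atf5 did not pass.

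The het and WT levels of Atf5 differed by a log2 fold change of 0.059 (95% interval -0.045 to 0.16; edgeR adjusted p = 1.00). Between homo and het the log2 fold change was 0.15 (SE 0.049; edgeR unadjusted p = 0.0073, adjusted p = 0.301), with het replicate 3 inside the homo range. Without het replicate 3 it was 0.22, with an edgeR adjusted p of 0.0234. Of the annotated exon bases of Atf5, 82 (4.11%) also lie in exons of Nup62 and Il4i1 on the opposite strand. Whether strand was used in counting is not stated, so these reads cannot be assigned to either gene with certainty, though Nup62 had a mean of 51.8 CPM and Il4i1 of 0.557 CPM over the 9 libraries.

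OSN markers moved with Atf5 across the libraries. The summed level of the 7 mature OSN markers was 6824, 6833 and 6807 CPM in WT, 6814, 6812 and 7342 CPM in het and 7281, 6969 and 7549 CPM in homo libraries. The same 4 libraries, the 3 homo libraries and het replicate 3, were highest in both measures. Of the 7 markers, 6 had a positive and 1 a negative homo to WT log2 fold change, none passed the edgeR threshold, and none was at 0. The summed level of the 5 immature OSN markers ranged from 2023 to 2083 CPM in WT, 1952 to 2185 CPM in het and 2147 to 2211 CPM in homo libraries.

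Per 1000 CPM of mature OSN markers, Atf5 had 163, 162 and 160.3 CPM in WT, 162, 159.9 and 171 CPM in het and 174, 179 and 174 CPM in homo libraries. Homo and WT ranges remained apart on this scale, and the mean went from 162 ± 1.28 to 176 ± 3.21 (SD, n = 3). With the summed OSN markers as a covariate, the homo to WT log2 fold change of Atf5 was 0.10 (edgeR unadjusted p = 0.0442, adjusted p = 0.698), against 0.21 without it.

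**Figure D2:**
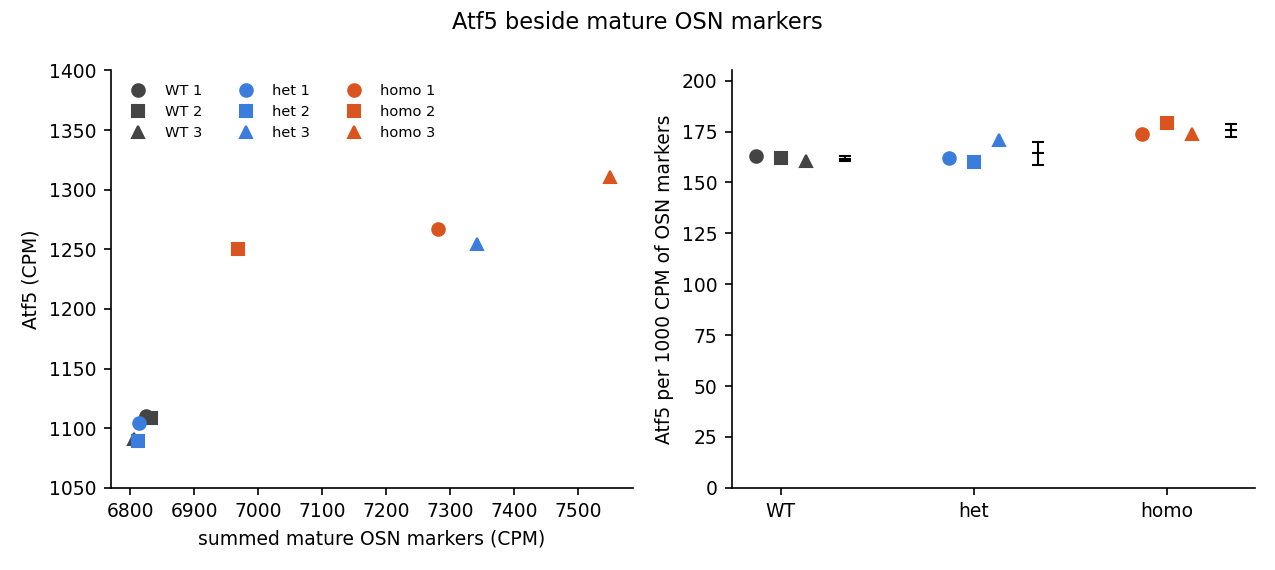
Left, Atf5 level against the summed level of 7 mature OSN markers, both in CPM, with 1 point per library and axes that do not start at 0; right, Atf5 per 1000 CPM of those markers, with mean ± SD (n = 3). The 3 homo libraries and het replicate 3 lie at 1249.9 to 1310.4 CPM of Atf5, and the other 5 libraries lie between 1089.5 and 1111 CPM.

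Ddit3 (chr10:127290774-127296288, + strand) encodes CHOP, a transcription factor made in prolonged ER stress. It had 35.1, 39.2 and 36.9 CPM in WT, 41.0, 36.2 and 42.3 CPM in het and 38.8, 45.5 and 41.5 CPM in homo libraries. Homo replicate 1 lay within the WT range, and the other 2 homo libraries lay above it. The homo to WT log2 fold change was 0.17 (SE 0.073, 95% interval 0.019 to 0.33; edgeR unadjusted p = 0.0299, adjusted p = 0.487). It was 0.063 without the 3 libraries with vomeronasal reads, 2 of which are homo replicates 2 and 3. Of the exon bases of Ddit3, 68 (3.97%) overlap Mars on the opposite strand.

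In the IRE1 arm, Xbp1 and its target Dnajb9 did not move together. Xbp1 (chr11:5520659-5525893, + strand) encodes the transcription factor made from the spliced mRNA, and gene counts do not separate spliced from unspliced forms. It had 163, 160.3 and 171 CPM in WT, 202, 161 and 154 CPM in het and 166, 168 and 161 CPM in homo libraries. Het replicate 1 stood apart from the other 8 libraries, which lay between 154 and 171 CPM. The homo to WT log2 fold change was 0.0044 (95% interval -0.16 to 0.16; edgeR adjusted p = 0.992).

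Dnajb9 (chr12:44205559-44210326, - strand) had the largest difference of the 9 genes. It had 92.6, 84.2 and 81.3 CPM in WT, 76.0, 89.9 and 82.4 CPM in het and 99.7, 120.0 and 99.1 CPM in homo libraries. All 3 homo libraries lay above all 6 libraries of the other genotypes, with homo replicate 2 the highest. The homo mean was 23.5% above WT (log2 fold change 0.30, SE 0.076, 95% interval 0.14 to 0.47; edgeR unadjusted p = 0.00109, adjusted p = 0.289). It was 28.4% above het (log2 fold change 0.36, SE 0.076, 95% interval 0.20 to 0.52; edgeR unadjusted p = 0.00025, adjusted p = 0.109). DESeq2 with default settings gave adjusted p-values of 0.0305 and 0.00165 for these comparisons, and edgeR with no filter on low counts gave 0.0354 for homo against het. Without the 3 libraries with vomeronasal reads, which leaves homo replicate 1 as the only homo library, assumed to vary like the other groups, the log2 fold changes were 0.21 against WT and 0.21 against het, with edgeR adjusted p-values of 0.925 and 0.956.

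The ER chaperone genes stayed close to their WT level. Hspa5 (chr2:34771970-34777547, + strand) had 535, 517 and 537 CPM in WT, 548, 517 and 506 CPM in het and 516, 546 and 568 CPM in homo libraries, and the genotypes overlapped. Its homo to WT log2 fold change was 0.036 (95% interval -0.064 to 0.14; edgeR adjusted p = 0.879). Hsp90b1 (chr10:86690209-86705509, - strand) had 754, 737 and 757 CPM in WT, 738, 731 and 721 CPM in het and 695, 733 and 716 CPM in homo libraries. All 3 homo libraries lay below all WT libraries, by a small step. The log2 fold change was -0.068 (SE 0.038, 95% interval -0.15 to 0.013; edgeR unadjusted p = 0.0951, adjusted p = 0.623). Of the exon bases of Hsp90b1, 415 (10.3%) overlap the pseudogene 1810014B01Rik on the opposite strand, which had a mean of 5.28 CPM.

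Herpud1 (chr8:94386438-94395377, + strand), the member of ER-associated degradation, had 164, 155 and 173 CPM in WT, 159.8, 172 and 156 CPM in het and 163, 192 and 171 CPM in homo libraries. Homo replicate 2 was the highest, and the other homo libraries lay within the WT range. The homo to WT log2 fold change was 0.095 (95% interval -0.037 to 0.23; edgeR adjusted p = 0.678). The 3 genes with an ERSE or ERSE-II match, Hspa5, Hsp90b1 and Herpud1, thus had homo to WT log2 fold changes of 0.036, -0.068 and 0.095, none past the threshold.

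**Figure D3:**
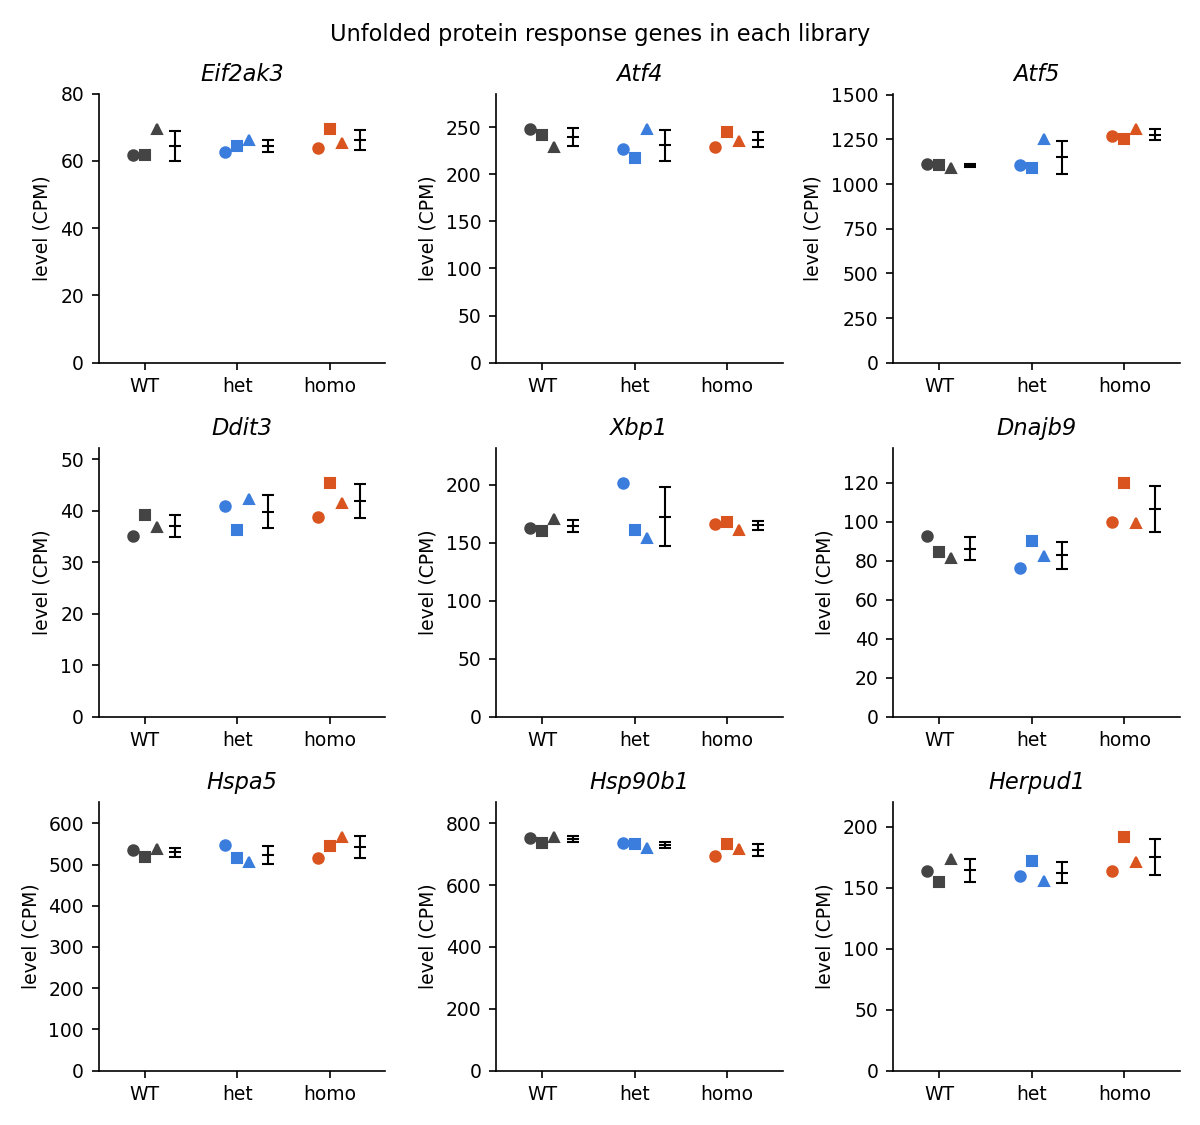
Level of each of the 9 genes in CPM in each library, with circles, squares and triangles for replicates 1, 2 and 3 and bars for the mean ± SD of the 3 libraries of a genotype. Atf5 and Dnajb9 lie higher in all 3 homo than in all 3 WT libraries, Hsp90b1 lies lower, and the other 6 genes overlap.

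Across the 3 comparisons, which share libraries, edgeR called 0 of the 9 genes. Between homo and WT mice, 10 of 20213 genes (0.0495%) were called at an adjusted p under 0.05. At an unadjusted p under 0.05, 3 of the 9 genes (Atf5, Ddit3 and Dnajb9) stood beside 9.26% of all genes tested. Homo and WT ranges did not overlap for 3 of the 9 genes (Atf5, Dnajb9 and Hsp90b1), against 15.4% of all genes tested. DESeq2 with default settings called 2 of the 9 genes, Atf5 and Dnajb9, and 65 of the 8450 genes (0.769%) to which it gave an adjusted p. The log2 fold changes were positive for 7 and negative for 2 of the 9 genes, with a median of 0.042 beside -0.00057 over all genes tested.

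Between het and WT mice, 1 gene of all those tested (0.00495%) was called by edgeR. None of the 9 genes had an unadjusted p under 0.05, against 3.25% of all genes, and for none did the ranges fail to overlap, against 8.68%. DESeq2 called 0 of the 9 and 3 of the 22057 genes (0.0136%) to which it gave an adjusted p. The log2 fold changes of the 9 genes were positive for 4 and negative for 5, from -0.056 for Dnajb9 to 0.10 for Ddit3.

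Between homo and het mice, 23 genes (0.114%) were called by edgeR. At an unadjusted p under 0.05 there were 2 of the 9 genes, Atf5 and Dnajb9, against 10.4% of all genes tested. Dnajb9 alone of the 9 had ranges that did not overlap, against 14.1% of all genes. DESeq2 called Dnajb9 alone of the 9, and 122 of the 10151 genes (1.2%) to which it gave an adjusted p. The 9 log2 fold changes were positive for 7 and negative for 2, with a median of 0.053 beside -0.0017 over all genes tested.

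**Figure D4:**
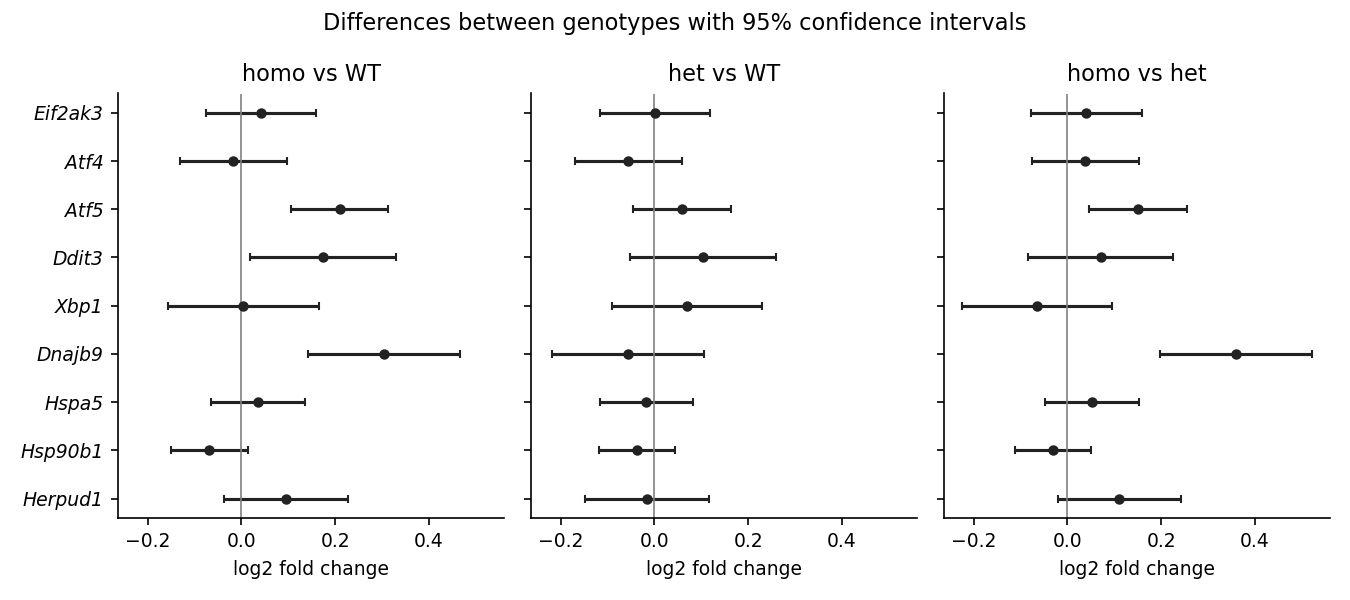
Log2 fold change of each of the 9 genes in the 3 comparisons, with 95% confidence intervals from the edgeR fit. Between homo and WT, the unadjusted intervals of Atf5, Ddit3 and Dnajb9 lie above 0; between homo and het, those of Atf5 and Dnajb9 do; between het and WT, none does.

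The 9 genes differed in how much they varied among mice of the same genotype. The pooled coefficient of variation within genotypes was 1.88% for Hsp90b1, lower than that of all but 1.44% of the 11606 genes with a mean of at least 10 CPM, whose median was 5.21%. It was 3.90% for Hspa5, 4.83% for Atf5 and 5.05% for Atf4, with Eif2ak3 between Atf5 and Atf4. Herpud1 with 6.54%, Ddit3 with 7.29%, Xbp1 with 8.89% and Dnajb9 with 8.98% varied more than the median gene. For Atf5 the spread lay mostly in the het group, with an SD of 91.2 CPM beside 10.6 CPM in WT and 31.2 CPM in homo mice.

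Other genes of the pathway were read from 7 lists of 58 genes, all of which were tested. With edgeR none passed the threshold in any of the 3 comparisons, and none did with DESeq2. Between homo and WT mice 8 of the 58 had an unadjusted p under 0.05, 5 higher and 3 lower in homo, beside 9.26% of all genes tested. The log2 fold changes were positive for 27 and negative for 31, with a median of -0.0049. Homo and WT ranges did not overlap for 9 of the 58 genes, against 15.4% of all genes tested. Homo and het ranges did not overlap for 10 of the 58, against 14.1% of all genes tested.

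Among the 7 genes for eIF2alpha kinases and phosphatase subunits, 3 had positive and 4 negative homo to WT log2 fold changes. Ppp1r15a, encoding the stress-induced phosphatase subunit GADD34, had 145, 140.1 and 127 CPM in WT and 136, 193 and 152 CPM in homo libraries (log2 fold change 0.22; edgeR adjusted p = 0.511). Eif2ak2, encoding the kinase PKR, had a log2 fold change of -0.21 (edgeR adjusted p = 0.450), and Eif2ak4, encoding the amino acid sensor GCN2, of -0.15 (edgeR adjusted p = 0.604). Homo replicate 2 had the highest Ppp1r15a and the lowest Eif2ak2 and Eif2ak4 of the 9 libraries.

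Of the 10 ATF4 and CHOP target genes, 6 had positive and 4 negative homo to WT values. Atf3, a stress-induced transcription factor gene, had 3.33, 4.18 and 3.17 CPM in WT, 3.35, 3.55 and 3.38 CPM in het and 3.49, 13.7 and 4.22 CPM in homo libraries. Homo minus WT was 0.98 on the log2 scale (SE 0.37; edgeR adjusted p = 0.449) with homo replicate 2 far above the other 8 libraries. This library was also the highest of the homo libraries for Ppp1r15a, Trib3, Eif2ak3, Atf4, Ddit3, Xbp1, Dnajb9, Hsp90b1 and Herpud1, but not for Atf5 and Hspa5. Trib3, a pseudokinase gene downstream of CHOP, had a log2 fold change of 0.20 (edgeR adjusted p = 0.451), and Psat1, of serine synthesis, of -0.10 (edgeR adjusted p = 0.568). Homo replicate 2 was one of the libraries with vomeronasal reads, and its 6 handling-sensitive early genes summed to 195 CPM, beside 116 to 148 CPM in the other 8 libraries; their part in these values was not tested.

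In the IRE1 and XBP1 arm, 4 of 9 genes had positive and 5 negative homo to WT values. Ern1, encoding IRE1 itself, had 42.8, 41.3 and 40.2 CPM in WT, 45.1, 42.5 and 40.9 CPM in het and 38.6, 36.4 and 36.8 CPM in homo libraries. All 3 homo libraries lay below the other 6, with a log2 fold change of -0.15 against WT (edgeR adjusted p = 0.447) and -0.20 against het (edgeR adjusted p = 0.238). Dnajc3, an ER co-chaperone gene, had a value of -0.090 (edgeR adjusted p = 0.643), and Sec24d, of the vesicle coat that leaves the ER, of -0.066 (edgeR adjusted p = 0.744).

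In the ATF6 arm, 1 of 5 genes was positive and 4 were negative between homo and WT. Atf6, the sensor, had 134, 138 and 134 CPM in WT, 139, 141 and 145 CPM in het and 130.1, 128 and 128 CPM in homo libraries, so that its 3 genotypes did not overlap. The log2 fold change was -0.073 against WT (edgeR adjusted p = 0.621) and -0.14 against het (edgeR adjusted p = 0.249). Its relative Atf6b had a value of 0.13 (edgeR adjusted p = 0.523), and Creb3, a related membrane-bound factor, of -0.073 (edgeR adjusted p = 0.701).

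Among 12 ER chaperone and folding enzyme genes, 5 were positive and 7 negative between homo and WT. Dnajc10, an ER disulfide reductase gene, had a log2 fold change of -0.12 (edgeR adjusted p = 0.479). Sdf2l1, a cofactor of BiP, had 0.18 (edgeR adjusted p = 0.542), and Creld2, an ER stress-induced gene, 0.12 (edgeR adjusted p = 0.587). Among 11 genes of ER-associated degradation, 4 were positive and 7 negative. Derl3 and Derl1, which encode derlins of the ER membrane, had values of -0.23 (edgeR adjusted p = 0.631) and 0.070 (edgeR adjusted p = 0.653).

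The 4 feedback partners all had positive homo to WT values. Rtp1, which encodes a transporter that brings olfactory receptors to the cell surface, had 570.3, 599.6 and 608 CPM in WT, 571, 597 and 619 CPM in het and 643, 658 and 662 CPM in homo libraries. All 3 homo libraries lay above the other 6. The log2 fold change was 0.14 against WT (SE 0.043; edgeR unadjusted p = 0.00468, adjusted p = 0.345) and 0.14 against het (edgeR adjusted p = 0.298). For Rtp2, Kdm1a and Adcy3, the adenylyl cyclase gene of odour signalling, the homo to WT values were 0.064 (edgeR adjusted p = 0.712), 0.034 (edgeR adjusted p = 0.871) and 0.030 (edgeR adjusted p = 0.919). The summed mature OSN markers were 7342 CPM in het replicate 3 and 7281, 6969 and 7549 CPM in homo libraries. The part of OSN content in the Rtp1 values was not tested.

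**Figure D5:**
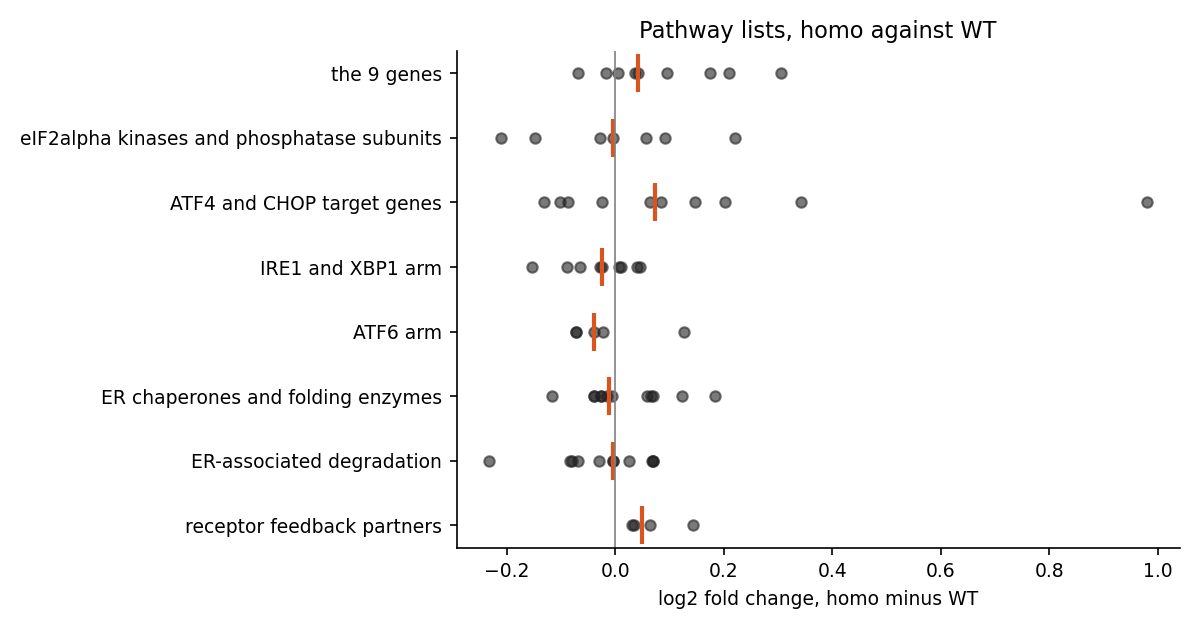
Homo to WT log2 fold changes of the 9 genes and of the 58 genes in 7 pathway lists, with 1 point per gene and a bar at the median of each list. No point passed the edgeR threshold, and Atf3 lies farthest out at 0.98.

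For comparison outside the ER, the 8 cytosolic heat shock genes had 6 positive and 2 negative homo to WT values with a median of 0.055, and none passed the threshold. Plasma cells are a secretory cell type rich in Xbp1 and ER chaperones, and the 4 plasma cell markers summed to only 8.11 to 9.47 CPM in the 9 libraries. Gland cells are secretory too, and the 5 gland markers summed to between 3513 CPM (het replicate 3) and 8909 CPM (WT replicate 3). Between these libraries Bpifb9b went from 81.7 to 4012 CPM, Bpifb9a from 13.1 to 618 CPM and Bpifa1 from 2869 to 3769 CPM. Aqp5 went from 135 to 131 CPM and Muc5b from 415 to 379 CPM, so the markers did not move together. Between homo and WT, 1 of the 5 gland markers had a positive and 4 a negative log2 fold change, and none passed the edgeR threshold. Bpifa1 had 3592, 4094 and 3769 CPM in WT, 3436, 3486 and 2869 CPM in het and 3064, 3050 and 2973 CPM in homo libraries. Its homo to WT log2 fold change was -0.33 (edgeR unadjusted p = 6.21e-05, adjusted p = 0.105). The part of gland cells in the chaperone levels was not tested.

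The genes with patterns most like those of Atf5 and Hspa5 were sought by the Pearson correlation of log2 CPM over the 9 libraries, among 11605 other genes with a mean of at least 10 CPM. These correlations describe 9 libraries that share genotype groups and cell makeup. The genes were chosen for this likeness, so their shared pattern is not a separate observation. Nearest to Atf5 were Prkaca (r = 0.988), the catalytic subunit gene of protein kinase A, Syp (r = 0.984), the synaptophysin gene, and Ak1 (r = 0.979), an adenylate kinase gene. Their Spearman rank correlations with Atf5 were lower, at 0.733, 0.883 and 0.833. Prkaca had 139, 139.9 and 139 CPM in WT, 140.2, 140.0 and 149 CPM in het and 151, 149 and 155 CPM in homo libraries, with het replicate 3 at the homo level. The homo to WT log2 fold changes were 0.12 for Prkaca, 0.12 for Syp and 0.15 for Ak1, beside 0.21 for Atf5, and none passed the edgeR threshold (adjusted p = 0.423, 0.451 and 0.397).

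Nearest to Hspa5 were Ahsa1 (r = 0.959), an activator gene of the cytosolic chaperone HSP90, Cant1 (r = 0.925), a calcium-dependent nucleotidase gene of the secretory pathway, and Stip1 (r = 0.911), which links HSP70 and HSP90. Ahsa1 had 90.7, 88.9 and 90.9 CPM in WT, 92.3, 87.6 and 86.0 CPM in het and 89.9, 93.1 and 95.2 CPM in homo libraries. In each of these genes, as in Hspa5, homo replicate 3 was the highest of the 3 homo libraries and het replicate 3 the lowest of the 3 het libraries.

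Among the 9 genes themselves, the highest correlations of log2 CPM over the 9 libraries were 0.73 for Dnajb9 with Herpud1 and 0.72 for Eif2ak3 with Herpud1, and the lowest was -0.76 for Atf5 with Hsp90b1. Once each genotype's mean was taken out, the first of these pairs had 0.62, the second 0.69 and the last -0.39. Hsp90b1 with Herpud1 then had 0.85, Atf5 with Atf4 0.75 and Hspa5 with Hsp90b1 0.73. With 9 libraries these values are descriptions.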

How the data were processed

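Whole MOE RNA of 9 mice, 3 per genotype, was profiled from polyA-selected directional libraries. The deposited table holds raw counts of reads per gene, which the authors made from reads mapped to mm10 with HISAT2 2.1.0, per the labels. The study's methods name featureCounts, the submitters' processing notes HTSeq, and annotation and strand setting are not given in the sources used here. Its 5 summary rows (no feature 21.6 to 22.4%, not unique 16.9 to 19.4%, ambiguous 1.29 to 1.35%, of the reads accounted for) were left out. A second table of normalized values was not used.

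Genes with at least 10 counts in sum were normalized by TMM and fitted with edgeR 4.0.16 (quasi-likelihood test, R 4.3.3), genotype being the only term and all 9 libraries sharing the spread. P-values were adjusted by Benjamini-Hochberg over the 20213 genes (threshold 0.05). DESeq2 1.42.0 was an alternative. The pipeline was tested on simulated data. Exon lengths and positions are from GENCODE M21, on GRCm38, and promoters from RefSeq.

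The 9 genes and all gene lists were chosen with earlier results of these data known. Named genes are the 9, in each pathway list the 3 with the smallest p between homo and WT, Taar2 to Taar5, and the 3 nearest in pattern to Atf5 and Hspa5; other genes were named after their values were seen, and 1 gene that the rule selects is not reported here. Counts carry no molecular identifiers, so precision from depth covers counting error only.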

Additional observations from a re-analysis of the deposited data

How the results depend on the processing

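With 3 mice a group, edgeR's calls among the 9 genes depended on settings, while the 58 pathway genes had 0 calls under every setting run. Between homo and WT, the count over all genes was 10 and became 65 with DESeq2 defaults, 48 with DESeq2 without independent filtering (added after seeing the data) and 47 with only the 6 libraries compared; among the 9 genes it was 0 and became 2, 2 and 1. Leaving out a library gave 8 to 33 over all genes and 0 to 1 among the 9, the 1 being Atf5 without het replicate 3, which also gave the 33. Between het and WT, the count of 1 became 3 with either DESeq2 setting and 0 with the replicate block or only 6 libraries, and 0 to 1 with a library left out. Between homo and het, the count of 23 became 122 with DESeq2 defaults, 123 without its filtering, 50 with no filter on low counts, 41 with the replicate block, 11 with only 6 libraries, 7 with OSN markers as a covariate, 6 without the 3 libraries with vomeronasal reads and 8 with vomeronasal receptors as a covariate (the last 2 added after seeing the data), and 7 to 190 with a library left out, 190 without het replicate 3. Among the 9 genes it was 0 and became 1 with either DESeq2 setting and with no filter on low counts (Dnajb9 each time), and 0 to 1 with a library left out (Atf5 without het replicate 3). The cause was not tested.

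Deviations of same-numbered libraries correlated by -0.30 to 0.16 between WT and het and by -0.21 to 0.022 between WT and homo. Between het and homo the correlations were 0.097, 0.50 and 0.53 for replicates 1, 2 and 3. Of the 9 libraries, 2 correlated best with their own number in both other genotypes. The numbers were not taken to pair the mice, and what replicates 2 and 3 of het and homo shared was not tested. With the replicate block, 0 of the 9 genes were called in any comparison, with adjusted p-values of 0.161 for Atf5 between homo and WT and 0.0559 for Dnajb9 between homo and het, and homo against WT had 12 calls over all genes.

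No sign change concerned a called value. Without the 3 libraries with vomeronasal reads, log2 fold changes between homo and WT were -0.011 for Eif2ak3, -0.040 for Hspa5 and -0.0068 for Herpud1, between het and WT 0.0020 for Dnajb9 and -0.059 for Xbp1, and between homo and het -0.035 for Eif2ak3, -0.020 for Ddit3, 0.073 for Xbp1, -0.021 for Atf4 and -0.0023 for Herpud1. With vomeronasal receptors as a covariate they were -0.042 for Hspa5 and -0.12 for Xbp1 between homo and WT and -0.0074 for Eif2ak3 between het and WT. With OSN markers as a covariate Herpud1 had 0.012 between het and WT and Xbp1 0.034 between homo and het, and with filterByExpr Eif2ak3 had -0.0013 between het and WT. With a library left out, the ranges that crossed 0 were, between homo and WT, -0.014 to 0.035 for Xbp1 and -0.044 to 0.011 for Atf4; between het and WT, -0.012 to 0.096 for Atf5, -0.030 to 0.060 for Eif2ak3, -0.052 to 0.0039 for Hspa5, -0.12 to 0.0016 for Dnajb9, -0.059 to 0.14 for Xbp1 and -0.059 to 0.026 for Herpud1; and between homo and het, -0.13 to 0.064 for Xbp1 and -0.0037 to 0.10 for Atf4. Atf5 and Dnajb9 were higher in homo than in WT and than in het mice under every setting run, with log2 fold changes from 0.10 to 0.24 and from 0.21 to 0.40 against WT.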
